A study of Mus musculus with 24 samples.

Results

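Toll-like receptors are the innate receptors with which B cells read microbial lipids, lipoproteins and nucleic acids, and 10 genes of this system were followed in splenic B cells of C57BL/6 mice: Tlr1, Tlr2, Tlr6, Tlr4, Tlr7 and Tlr9, the chaperone gene Unc93b1, the adaptor gene Myd88, and Cd180 and Ly86, which encode a receptor complex related to Toll-like receptors. They were chosen by name, with earlier results of these data known, and all 10 were among the 23234 genes of both expression tables. The series compared B cells labelled Tet2/Tet3-deficient (DKO, also written Tet KO in the titles) with control B cells (CTL). Tet2 and Tet3 encode enzymes that oxidise 5-methylcytosine in DNA. The labels give neither the alleles, the ages of the mice, nor the promoter behind the deletion, and they do not say that replicates were separate animals. P-values below therefore measure the spread between these libraries, which may be technical.

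RNA-seq libraries of 4 groups of 3 were used: DKO and CTL cells sorted as CD93-, and DKO and CTL cells sorted as CD93+. CD93 marks immature, transitional B cells, and also some myeloid cells. The other 12 of 24 samples, which are CD23 and CD21 subsets of CD93- cells, were not used here. Values are FPKM, fragments per length of transcript and per total of mapped fragments, so levels of different genes can be set side by side. Depth is unknown. The tables of the 2 populations were scaled separately and were tested separately.

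Toll-like receptors on the cell surface work as pairs, with Tlr2 joining Tlr1 or Tlr6 to bind bacterial lipopeptides, and Tlr4 binding lipopolysaccharide with the help of MD-2. Tlr7 and Tlr9 bind RNA and DNA in endosomes and reach them only with the carrier protein encoded by Unc93b1. All of these can signal through the adaptor encoded by Myd88. In B cells the surface protein CD180 pairs with MD-1, the product of Ly86, and this complex is known for modulating B cell responses to lipopolysaccharide.

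Some facts of the libraries bear on all values. In the CD93- table the sum of FPKM was 424032 to 463987 in DKO and 342368 to 394709 in CTL libraries. In the CD93+ table DKO replicate 3 had 309359, against 523898 to 597968 in the other 5 libraries. Results are therefore also given after scaling the upper quartile of tested genes to the same value in every library (called rescaling below), and as ratios of members within a library, which no scaling can move. By Xist and the Y-linked gene Ddx3y, all 6 CD93- libraries read as male. Among CD93+ libraries, the 3 of DKO and CTL replicate 3 read as female, and the other 2 CTL libraries as male. Tlr7 lies on the X chromosome. Tet2 was at 8.15 to 9.94 FPKM in DKO and 6.36 to 8.79 FPKM in CTL libraries of CD93- cells, and at 1.80 to 3.55 against 3.10 to 3.47 FPKM in CD93+ cells. Tet3 was at 14.9 to 15.7 against 14.8 to 20.1 FPKM in CD93- cells, and at 3.84 to 9.92 against 12.1 to 14.1 FPKM in CD93+ cells. With the authors' scaling neither gene was called in either population, and the log2 change of Tet3 was -0.20 in CD93- and -0.87 in CD93+ cells (limma adjusted p = 0.360 and 0.222). Tet3 was called lower after upper quartile rescaling in both populations (log2 change -0.41 and -0.66, adjusted p = 0.00180 and 0.0150), and Tet2 in neither. Of all genes 23.8% and 9.34% were called lower after that rescaling. Gene totals include exons that a deletion may leave in place, so these values do not check the labels. Cd93 itself was at 3.32 to 3.85 FPKM in DKO and 3.88 to 4.65 FPKM in CTL libraries of the CD93- sort, and at 27.98 to 50.5 against 50.9 to 59.9 FPKM in the CD93+ sort.

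In CD93- cells the members spanned a wide range of levels. Unc93b1 stood highest, at 411 ± 11.4 FPKM in DKO and 299 ± 42.5 FPKM in CTL libraries (SD, n = 3 each, as for all mean ± SD values). The lowest were Tlr4 and Tlr2, whose libraries overlapped each other within both groups. In CTL cells the order below Unc93b1 was Ly86, Cd180, Tlr1, Tlr9, Myd88, Tlr7 and Tlr6, and neighbours whose libraries overlapped were Ly86 with Cd180, Tlr1 with Tlr9, Myd88 with Tlr7, and Tlr7 with Tlr6. In DKO cells the order was Cd180, Tlr9, Ly86, Tlr1, Myd88, Tlr7 and Tlr6, and none of these neighbours overlapped. By mean, Ly86 thus had rank 4 in DKO and rank 2 in CTL cells, and Tlr9 rank 3 in DKO and rank 5 in CTL cells.

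**Figure D1:**
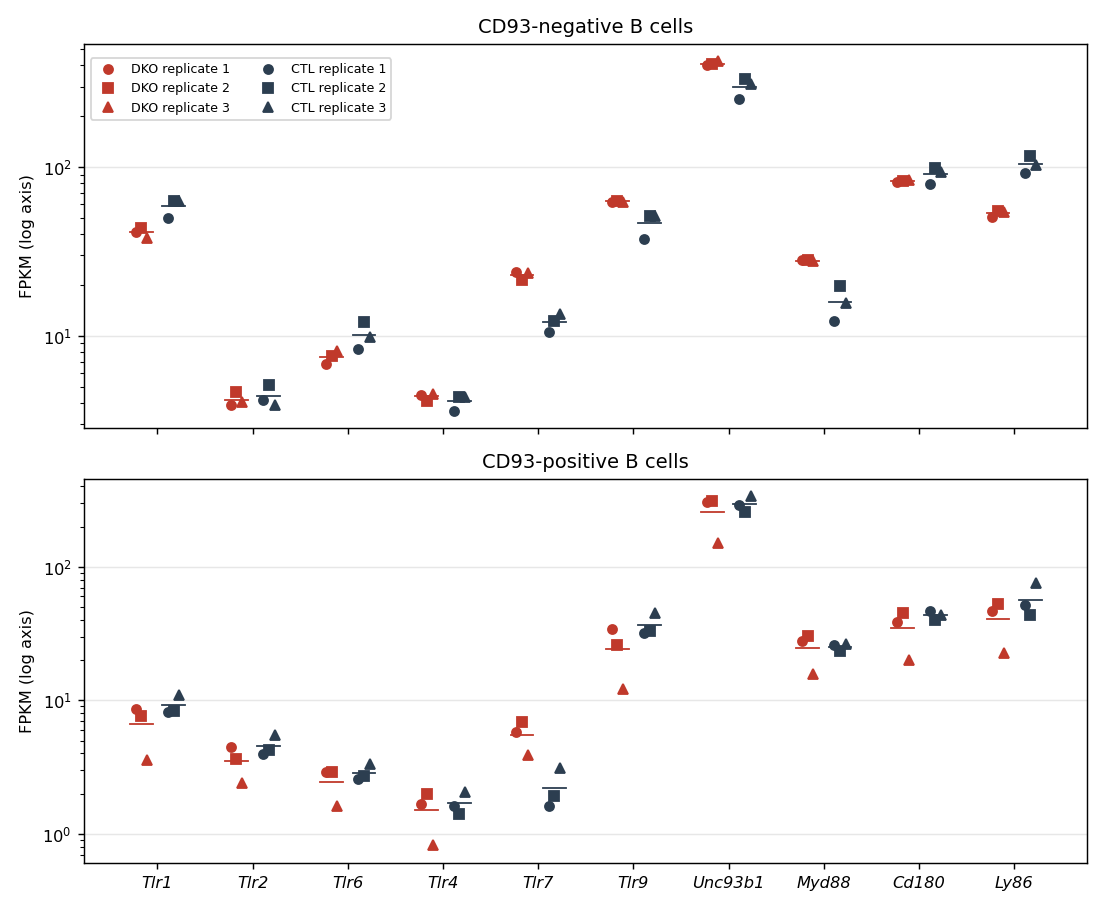
FPKM of each member in each library (log axis), DKO in red at the left and CTL in dark blue at the right of each pair, with horizontal lines at the group means and 1 symbol per replicate number. In CD93- cells Tlr7 and Myd88 lie higher and Ly86 lies lower in DKO than in CTL libraries, and in CD93+ cells DKO replicate 3 is the lowest DKO library for all 10 genes.

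The comparison of DKO with CTL cells was fitted in limma on log2(FPKM + 1) over all genes that reached 1 FPKM in 3 or more libraries, with Benjamini-Hochberg adjustment over all of them and a threshold of 0.05. Changes are DKO minus CTL on that scale, which understates changes of low genes. All 10 members passed the filter in both tables. In the CD93+ fit with the authors' scaling, all genes of like level were given the same spread. No limma p-value of that fit rests on a gene's own spread between replicates. In CD93- cells 3 members rose and 2 fell, where over all 10960 genes tested 18.7% were called higher and 2.79% lower. After upper quartile rescaling 4 members rose and 4 fell, against 17.1% and 23.8% of all genes. With DKO above CTL, the groups did not overlap for 4 members, against 31.5% of all genes, and with DKO below CTL for 3, against 7.43%. The median change was 0.01 over the members and 0.11 over all genes, and after rescaling -0.17 and -0.08. In CD93+ cells 1 member rose and none fell, where 1.67% of 11250 genes were called higher and 1.54% lower. The single call was Tlr7. At an unadjusted limma p under 0.05 it was also the only 1 of the 10, where 1338 of all 11250 genes were under that limit. That count of 1 in 10 is near the share over all genes. After rescaling it was again the 1 call, against 11.4% higher and 9.34% lower over all genes. On simulated data the fit recovered 85% of changes of 1 log2 unit for CD93- and 12% for CD93+ cells. A gene not called in CD93+ cells is thus not shown to be unchanged.

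**Figure D2:**
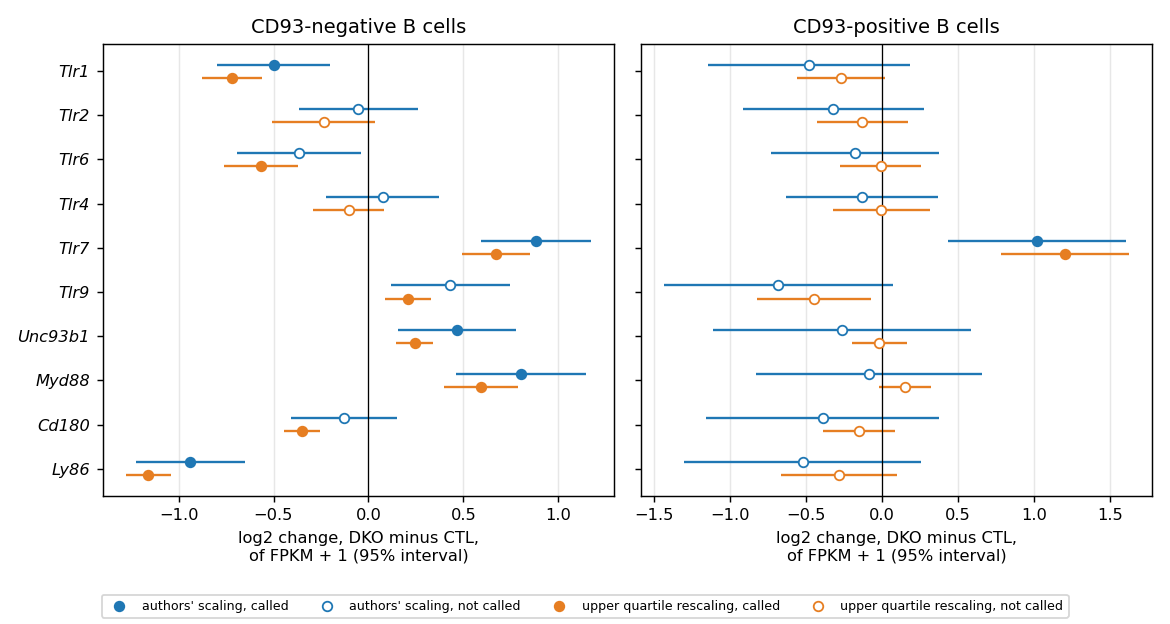
Log2 change of each member, DKO minus CTL, of FPKM + 1, with 95% intervals from limma, by the authors' scaling (blue) and after upper quartile rescaling (orange), filled where the adjusted p was under 0.05. Tlr7 lies above 0 in both populations under both scalings, and Ly86 lies below 0 in CD93- cells with filled points.

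Of the endosomal receptors, Tlr7, the sensor of single-stranded RNA, was at 23.9, 21.4 and 23.5 FPKM in DKO and at 10.5, 12.2 and 13.5 FPKM in CTL libraries of CD93- cells. The groups did not overlap, and the ratio of the means was 1.91. Its log2 change was 0.88 (SE 0.13, adjusted p = 5.56e-04), or 0.67 after upper quartile rescaling (adjusted p = 7.42e-04). It passed under all 22 alternatives, with adjusted p from 3.04e-07 to 0.00614.

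In CD93+ cells Tlr7 was at 5.81, 6.84 and 3.89 FPKM in DKO and at 1.61, 1.91 and 3.13 FPKM in CTL libraries. The groups again did not overlap, as in 2.94% of genes with DKO above and 19% with DKO below, and the ratio of the means was 2.49. The log2 change was 1.02 (SE 0.30, adjusted p = 0.0235), or 1.21 after rescaling (SE 0.18, adjusted p = 0.00735). With the authors' scaling the fit gave all genes of like level the same spread, as said above. The first of these p-values therefore does not rest on the spread of Tlr7 itself between replicates. It missed the threshold without a filter (0.582), without a trend (0.304) and without DKO replicate 2, CTL replicate 1 or CTL replicate 2 (adjusted p = 0.245, 0.697 and 0.373). After rescaling it held without each library in turn, with adjusted p from 0.00522 to 0.0355. The female CTL library had the highest CTL value, and with sex as a covariate the change was 0.63 (adjusted p = 0.948), or 0.90 after rescaling (adjusted p = 0.0637), while all its alternatives spanned adjusted p of 0.00522 to 0.948. Compared among female libraries alone, Tlr7 was at 3.89 to 6.84 FPKM in the 3 DKO libraries and 3.13 FPKM in the 1 CTL library.

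Tlr9, the sensor of unmethylated CpG DNA, was at 62.4, 63.2 and 62.3 FPKM in DKO and at 37.5, 51.6 and 51.04 FPKM in CTL libraries of CD93- cells. The DKO libraries lay above the CTL libraries and close together, yet the change of 0.43 missed the threshold (95% interval 0.12 to 0.74, adjusted p = 0.0515). It passed after rescaling (log2 change 0.21, adjusted p = 0.0162). Its alternatives gave adjusted p of 0.0113 to 0.155. In CD93+ cells Tlr9 was at 34.1, 26.1 and 12.2 FPKM in DKO and at 31.9, 33.02 and 45.1 FPKM in CTL libraries. These groups overlapped, and the change of -0.68 did not pass (95% interval -1.43 to 0.07, adjusted p = 0.488), nor did that of -0.45 after rescaling (adjusted p = 0.0870).

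Unc93b1, the carrier of both receptors, was at 400, 409 and 422 FPKM in DKO and at 252, 334 and 311 FPKM in CTL libraries of CD93- cells. All DKO libraries were above all CTL libraries, and the change of 0.47 passed (SE 0.14, adjusted p = 0.0353), as did that of 0.24 after rescaling (adjusted p = 0.00376). The call was lost after quantile normalization (log2 change 0.10, adjusted p = 0.199), without DKO replicates 1, 2 or 3 or CTL replicate 3 (adjusted p = 0.0796, 0.133, 0.142 and 0.0814), without a filter (0.0954) and with sample weights (0.0820). In CD93+ cells Unc93b1 was at 308, 311 and 151 FPKM in DKO and at 289, 256 and 339 FPKM in CTL libraries. The change of -0.26 was not distinguishable from 0 (95% interval -1.11 to 0.59, adjusted p = 0.848), and after rescaling it was -0.02 (95% interval -0.20 to 0.16).

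Ratios within a library show how the endosomal receptors stood to each other. The Tlr7/Tlr9 ratio was 0.383, 0.339 and 0.377 in DKO and 0.279, 0.236 and 0.264 in CTL libraries of CD93- cells, a 1.41-fold difference. In CD93+ cells it was 0.171, 0.263 and 0.320 in DKO and 0.0503, 0.0579 and 0.0694 in CTL libraries, a 4.01-fold difference. In both populations every DKO library was above every CTL library. The exact two-sided permutation p was 0.1 in each, the smallest that 3 against 3 libraries allow, and 0.16 and 0.133 after Benjamini-Hochberg adjustment over the 8 pairs of a population. Set against the carrier, the Tlr7/Unc93b1 ratio was 1.38-fold higher in CD93- and 2.95-fold higher in CD93+ DKO libraries, with no overlap in either (exact permutation p = 0.1 each). In the female CD93+ libraries it was 0.0189, 0.0220 and 0.0258 in DKO and 0.00923 in CTL. The Tlr9/Unc93b1 ratio overlapped in CD93- cells (0.147 to 0.156 in DKO and 0.149 to 0.164 in CTL libraries, exact permutation p = 0.6). In CD93+ cells it was 0.0807 to 0.110 in DKO and 0.111 to 0.133 in CTL libraries, 0.735-fold with groups that touched but did not overlap (exact permutation p = 0.1).

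**Figure D3:**
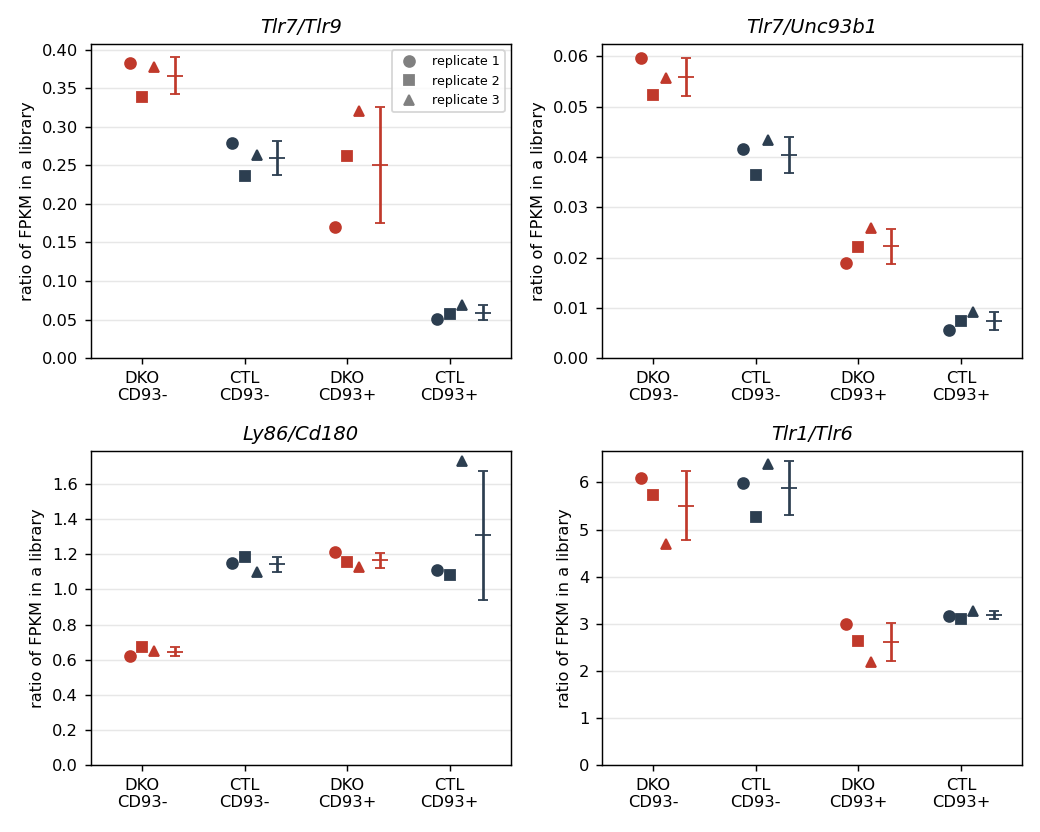
Ratio of FPKM of the named pairs in each library, with 1 symbol per replicate number and the group mean ± SD at its right (n = 3), DKO in red and CTL in dark blue, for CD93- and CD93+ cells. Tlr7/Tlr9 is higher in DKO libraries of both populations, and Ly86/Cd180 is lower in DKO libraries of CD93- cells, at 0.620 to 0.670 against 1.10 to 1.18.

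Myd88, the adaptor that carries the signal of all these receptors into the cell, was at 28.1, 27.9 and 27.7 FPKM in DKO and at 12.2, 19.6 and 15.6 FPKM in CTL libraries of CD93- cells. The DKO libraries were nearly equal and lay above the CTL libraries, with a log2 change of 0.80 (SE 0.16, adjusted p = 0.00329), or 0.59 after rescaling (adjusted p = 0.00180). It passed under all 22 alternatives, with adjusted p from 3.20e-06 to 0.0286. In CD93+ cells Myd88 was at 27.8, 30.6 and 15.7 FPKM in DKO and at 26.0, 23.4 and 26.5 FPKM in CTL libraries, which overlapped. There its change was -0.09 with the authors' scaling (adjusted p = 0.958) and 0.15 after rescaling (95% interval -0.02 to 0.32, adjusted p = 0.182), so its direction depended on the scaling. Of the exon bases of Myd88 in the GENCODE M21 annotation 11.3% lie opposite exons of Acaa1a, and the sources do not say that counting used strand. Acaa1a was at 30.6 ± 2.41 FPKM in DKO and 26.8 ± 6.17 FPKM in CTL libraries of CD93- cells.

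Sequence upstream of 3 members is shown for the adaptor that rose and for the partners of the CD180 complex, which differed from each other. RefSeq promoters of GRCm38.p6 matched 7 of the 10 genes, all but Tlr4, Tlr7 and Unc93b1, in 10 windows. Each line gives the 250 bases before the annotated start, 5′ to 3′ on the strand of the gene, with CG dinucleotides, at which DNA is mostly methylated in mammals, in capitals. The Myd88 window is chr9:119340019-119340268 on the minus strand, the Ly86 window chr13:37345095-37345344 and the Cd180 window, the first of its 2, chr13:102693297-102693546, both on the plus strand.
Myd88: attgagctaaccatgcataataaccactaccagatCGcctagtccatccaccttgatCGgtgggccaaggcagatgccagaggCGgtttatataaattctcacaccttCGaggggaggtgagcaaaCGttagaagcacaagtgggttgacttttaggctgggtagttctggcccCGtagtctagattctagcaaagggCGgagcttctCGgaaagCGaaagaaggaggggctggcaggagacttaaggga
Ly86: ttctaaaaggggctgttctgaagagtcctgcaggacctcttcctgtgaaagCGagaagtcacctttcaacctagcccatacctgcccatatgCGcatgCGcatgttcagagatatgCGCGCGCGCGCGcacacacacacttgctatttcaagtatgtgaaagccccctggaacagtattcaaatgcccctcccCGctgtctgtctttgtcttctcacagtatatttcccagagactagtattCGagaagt
Cd180: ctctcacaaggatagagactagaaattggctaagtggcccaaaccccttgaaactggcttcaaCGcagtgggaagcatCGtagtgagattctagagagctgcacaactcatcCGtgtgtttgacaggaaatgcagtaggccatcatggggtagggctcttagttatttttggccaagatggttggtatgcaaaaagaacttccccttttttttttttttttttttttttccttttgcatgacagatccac

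The windows held 9 CG dinucleotides for Myd88, 11 for Ly86, several of them in 1 alternating run, and 3 for Cd180, against a median of 6 over all 32851 windows. Methylation was not measured in these libraries. On both strands the windows were searched for the interferon-stimulated response element (GAAA, any 2 bases, GAAA), the gamma-activated site (TTCNNNGAA), the PU.1 core (GAGGAA) and an NF-kB site (GGGA, any base, TTTCC). These occurred in 2.98%, 7.02%, 23.3% and 0.356% of all windows. The Myd88 window held overlapping matches to the first and the second of them in the 16 bases TTCTCGGAAAGCGAAA, which run from base 46 to base 31 before the start. The Ly86 and Cd180 windows held no match to any of the 4. Over the 10 member windows, the first 3 motifs were each found in 2 and the NF-kB site in 0. The other window with the interferon-stimulated response element was one of Tlr6, and the other with the gamma-activated site one of Tlr1. Each of these genes also had a window without that match. Both were lower in all DKO than in all CTL libraries of CD93- cells, Tlr6 without a call under the authors' scaling. Any bearing of the matches on the changes was not tested. A match describes these letters and is not a measured site.

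The complex of CD180 and MD-1 was uneven in CD93- cells. Ly86, which encodes MD-1, was at 50.8, 55.02 and 54.4 FPKM in DKO and at 91.6, 117 and 103 FPKM in CTL libraries. The groups lay far apart, with a ratio of the means of 0.515 and a log2 change of -0.94 (SE 0.13, adjusted p = 3.29e-04), or -1.16 after rescaling (adjusted p = 1.57e-05). It passed under all 22 alternatives, with adjusted p from 1.39e-08 to 0.00422.

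Cd180, which encodes the receptor chain, was at 82.0, 82.1 and 83.8 FPKM in DKO and at 79.8, 98.5 and 93.8 FPKM in CTL libraries of CD93- cells. The groups overlapped, and the change of -0.13 did not pass (95% interval -0.41 to 0.15, adjusted p = 0.543). After rescaling it was -0.35 and passed (adjusted p = 7.82e-04), and adjusted p ran from 4.05e-04 to 0.775 among the alternatives. The Ly86/Cd180 ratio, free of scaling, was 0.620, 0.670 and 0.649 in DKO and 1.15, 1.18 and 1.10 in CTL libraries, 0.566-fold with no overlap (exact permutation p = 0.1, 0.16 adjusted).

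In CD93+ cells Ly86 was at 46.8, 52.3 and 22.5 FPKM in DKO and at 51.5, 43.4 and 75.2 FPKM in CTL libraries. Cd180 was at 38.7, 45.4 and 19.9 FPKM in DKO and at 46.4, 40.2 and 43.5 FPKM in CTL libraries. Neither passed, with changes of -0.52 (adjusted p = 0.637) and -0.39 (adjusted p = 0.733), or -0.28 (95% interval -0.67 to 0.10) and -0.15 (95% interval -0.39 to 0.08) after rescaling. The Ly86/Cd180 ratio was 1.21, 1.15 and 1.13 in DKO and 1.11, 1.08 and 1.73 in CTL libraries (exact permutation p = 1). The high CTL value was that of the female library. Without it the ratio was 0.09 higher in DKO libraries on the log2 scale, and with it 0.13 lower. With sex as a covariate and rescaling Ly86 had a change of -0.62 (adjusted p = 0.0629). Whether the change of Ly86 differs between the populations was not tested, since their tables were scaled apart.

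MD-2, the close relative of MD-1 that serves Tlr4, is encoded by Ly96. It was at 4.10, 3.37 and 2.59 FPKM in DKO and at 2.29, 5.56 and 3.02 FPKM in CTL libraries of CD93- cells, which overlapped. The Ly86/Ly96 ratio was 12.4 to 21.03 in DKO and 20.96 to 40.02 in CTL libraries of CD93- cells. The highest DKO and the lowest CTL value met there, and the groups were apart only after 0.1 FPKM had been added to both genes, as in the test (exact permutation p = 0.1). In CD93+ cells the ratio was 4.72 to 7.83 in DKO and 9.56 to 18.03 in CTL libraries, with no overlap (exact permutation p = 0.1).

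Of the surface receptors for lipopeptides, Tlr1 was at 41.3, 43.7 and 38.0 FPKM in DKO and at 49.8, 63.3 and 62.8 FPKM in CTL libraries of CD93- cells. All DKO libraries were below all CTL libraries. The change of -0.50 passed (SE 0.14, adjusted p = 0.0213), and so did that of -0.72 after rescaling (adjusted p = 3.41e-04). With the authors' scaling it was lost without DKO replicates 1, 2 or 3 or CTL replicate 3 (adjusted p = 0.0641, 0.0517, 0.121 and 0.0924) and without a filter (0.0522). After rescaling it held without each library in turn.

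Tlr6, the neighbour and close relative of Tlr1, was at 6.79, 7.63 and 8.11 FPKM in DKO and at 8.31, 12.03 and 9.83 FPKM in CTL libraries of CD93- cells. The groups did not overlap, and the change of -0.37 missed the threshold (adjusted p = 0.107), while that of -0.57 after rescaling passed (adjusted p = 0.00220). The alternatives spanned adjusted p of 0.00220 to 0.328. In GENCODE M21 transcripts 13.6% of the 50-base stretches of Tlr1 and 12.3% of those of Tlr6 occur in both genes, so reads there may have been split and each level is uncertain to that extent. Their ratio was 4.68 to 6.09 in DKO and 5.26 to 6.38 in CTL libraries of CD93- cells, and 2.20 to 2.998 in DKO against 3.11 to 3.28 in CTL libraries of CD93+ cells. It overlapped in the first population (exact permutation p = 0.6) and not in the second (exact permutation p = 0.1).

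Tlr2, the shared partner of both, was at 3.87, 4.65 and 4.04 FPKM in DKO and at 4.18, 5.10 and 3.91 FPKM in CTL libraries of CD93- cells. These overlapped, with a change of -0.05 (95% interval -0.37 to 0.26, adjusted p = 0.843). Tlr4 was at 4.48, 4.12 and 4.51 FPKM in DKO and at 3.59, 4.37 and 4.36 FPKM in CTL libraries, which also overlapped, with a change of 0.08 (95% interval -0.22 to 0.37, adjusted p = 0.755) that was -0.10 after rescaling. For neither gene do these intervals show that the groups are alike. The Tlr4/Cd180 ratio was 0.0502 to 0.0547 in DKO and 0.0443 to 0.0465 in CTL libraries, 1.17-fold (exact permutation p = 0.1). The Tlr2/Tlr6 ratio was 0.498 to 0.609 in DKO and 0.397 to 0.504 in CTL libraries (exact permutation p = 0.2).

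In CD93+ cells the Tlr2/Tlr6 ratio was 1.26 to 1.54 in DKO and 1.54 to 1.63 in CTL libraries, with the DKO libraries just below (exact permutation p = 0.1), and the Tlr4/Cd180 ratio overlapped (exact permutation p = 0.4).

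In CD93+ cells Tlr1 was at 8.68, 7.61 and 3.56 FPKM in DKO and at 8.15, 8.37 and 10.97 FPKM in CTL libraries, which overlapped. Its change was -0.48 (95% interval -1.14 to 0.19, adjusted p = 0.609). Tlr2 was at 2.40 to 4.44 FPKM in DKO and 3.98 to 5.46 FPKM in CTL libraries, Tlr6 at 1.62 to 2.89 against 2.57 to 3.34 FPKM, and Tlr4 at 0.819 to 2.001 against 1.42 to 2.04 FPKM. None of these 4 passed under either scaling, with adjusted p of 0.154 to 0.983 after rescaling. DKO replicate 3 was the lowest library for each of them, as for all members but Tlr7.

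Set side by side without a test, since the tables were scaled apart, CTL cells of the 2 sorts differed most in Tlr1 and Tlr7. Tlr1 was at 49.8 to 63.3 FPKM in CD93- and 8.15 to 10.97 FPKM in CD93+ CTL libraries, and Tlr7 at 10.5 to 13.5 against 1.61 to 3.13 FPKM. Unc93b1 was at 252 to 334 against 256 to 339 FPKM, and Myd88 at 12.2 to 19.6 against 23.4 to 26.5 FPKM. The Tlr1/Tlr6 ratio was 5.26 to 6.38 in CD93- and 3.11 to 3.28 in CD93+ CTL libraries. By mean, Tlr7 had rank 7 of the 10 members in CD93- CTL cells and rank 9 in CD93+ CTL cells, where its libraries overlapped those of Tlr6 and Tlr4.

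Markers of other cell types were read beside these values. Tlr2, Tlr4 and Myd88 are also genes of myeloid cells, and Tlr7 and Tlr9 of plasmacytoid dendritic cells. In CD93- cells the summed level of 7 neutrophil markers was 4.28 to 14.0 FPKM in DKO and 3.604 to 9.93 FPKM in CTL libraries, with 3 of them under 1 FPKM in all. That of 8 macrophage markers was 19.6 to 22.2 against 16.5 to 19.0 FPKM, with 2 under 1 FPKM. The sum of 6 monocyte markers was 81.6 to 89.7 FPKM in DKO and 29.2 to 50.7 FPKM in CTL libraries. Most of it was Ly6c2, at 56.8 to 63.4 against 21.0 to 34.2 FPKM. Itgam was at 15.4 to 17.7 against 0.717 to 1.56 FPKM. Ccr2 overlapped, at 3.47 to 3.99 against 3.92 to 7.31 FPKM, as did Lyz2, at 3.61 to 4.55 against 2.78 to 7.88 FPKM. The 5 plasmacytoid markers summed to 140 to 155 against 92.3 to 124 FPKM, most of it the interferon-inducible gene Bst2, whose groups did not overlap. Of the other 4, Ccr9 was higher in every DKO library, at 5.88 to 6.80 FPKM in DKO and 2.98 to 4.62 FPKM in CTL libraries. Siglech overlapped, at 17.1 to 19.8 against 19.0 to 29.0 FPKM, as did Klk1 and Pacsin1. The sum of 5 plasma cell markers was 321 to 359 FPKM in DKO and 68.4 to 95.5 FPKM in CTL libraries. Most of it was Igj, at 208 against 7.79 FPKM on average, and Xbp1, at 84.5 against 35.8 FPKM. Prdm1 was also higher in every DKO library, at 3.08 to 3.37 against 0.481 to 0.874 FPKM, while Sdc1 and Irf4 overlapped. The 6 dendritic cell markers summed to 17.5 to 19.4 against 9.22 to 14.9 FPKM, the 7 T cell markers to 47.0 to 50.7 against 26.4 to 43.8 FPKM, and the 5 red cell markers to 68.1 to 152 against 1.19 to 44.2 FPKM, with DKO libraries above CTL libraries in each. The 5 NK cell markers overlapped, and the 3 of transitional B cells summed to 73.9 to 83.7 FPKM in DKO and 87.4 to 113 FPKM in CTL libraries. Most of the latter sum was Vpreb3, at 53.7 to 65.6 against 74.4 to 93.8 FPKM, and Cd93 was also lower in every DKO library. Myb went the other way and was higher in every DKO library, at 14.5 to 16.8 against 9.09 to 14.3 FPKM.

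In the CD93+ sort the neutrophil markers summed to 430 to 1358 FPKM in DKO and 1527 to 2139 FPKM in CTL libraries, and the macrophage markers to 52.0 to 99.4 against 39.4 to 118 FPKM. The plasma cell markers summed to 843 to 1450 against 146 to 199 FPKM, and the plasmacytoid markers to 60.6 to 107 against 43.8 to 62.1 FPKM. The dendritic cell markers summed to 7.63 to 10.5 FPKM in DKO and 6.23 to 7.47 FPKM in CTL libraries, and the red cell markers to 2168 to 9039 against 8510 to 40143 FPKM. The sums of monocyte, T cell, NK cell and transitional B cell markers overlapped. The B cell receptor component Cd79a was at 919 to 982 FPKM in DKO and 843 to 1049 FPKM in CTL libraries of CD93- cells, and at 572 to 1199 against 1200 to 1589 FPKM in CD93+ cells. Pax5, the B cell identity factor, was at 182 to 202 against 195 to 227 FPKM in CD93- cells, and at 76.9 to 174 against 199 to 226 FPKM in CD93+ cells. The part of these cells in the members' values was not tested. In bulk samples fewer cells of a type and less RNA per cell cannot be told apart.

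The rest of the pathway was read from 5 lists of receptors, folding and trafficking genes, adaptors and kinases, transcription factors and negative regulators. Of 63 genes 53 were tested in CD93- cells, where 7 rose and 1 fell, against the 18.7% and 2.79% of all genes. Their median change was 0.07, against 0.11 over all genes. After upper quartile rescaling 9 rose and 20 fell, against 17.1% and 23.8% of all genes, with a median of -0.13 against -0.08. In CD93+ cells 1 of 54 rose and none fell, against 1.67% and 1.54% of all genes. After rescaling 7 rose and 8 fell there, against 11.4% and 9.34%.

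Among the other receptors only Tlr12, known in mice as a sensor of profilin, was tested in CD93- cells, and it rose, at 6.60, 7.19 and 6.28 FPKM in DKO and 2.47, 4.65 and 3.66 FPKM in CTL libraries (log2 change 0.77, adjusted p = 0.00785). Tlr3, Tlr5, Tlr8, Tlr11 and Tlr13 were under 1 FPKM in all 12 libraries. Of 12 tested folding and trafficking genes 2 rose and none fell, against 18.7% and 2.79% of all genes. After rescaling 3 of them rose and 2 fell, against 17.1% and 23.8% of all genes. Hsp90b1, the chaperone that folds Toll-like receptors and many other proteins of the secretory pathway, was at 366 ± 19.9 FPKM in DKO and 141 ± 23.7 FPKM in CTL cells (log2 change 1.38, adjusted p = 4.26e-05). Lgmn, a lysosomal protease, was at 70.8 ± 4.13 against 42.6 ± 5.87 FPKM.

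Of 20 tested adaptors and kinases 2 rose, against 18.7% of all genes, and both belong to the Myd88-independent branch. Ticam2 was at 7.05 ± 0.519 FPKM in DKO and 2.33 ± 0.619 FPKM in CTL cells (log2 change 1.29, adjusted p = 1.12e-04). Ticam1, which encodes TRIF, was at 10.3 ± 0.433 FPKM in DKO and 5.83 ± 0.462 FPKM in CTL cells, with a log2 change of 0.73 (adjusted p = 0.00157). After rescaling 10 of the 20 fell, against 23.8% of all genes, among them the kinase genes Ikbkb and Irak2, at -0.63 and -0.64. Irf7, the factor that Tlr7 and Tlr9 activate toward interferon genes, was the 1 of 8 transcription factors called with the authors' scaling, against 18.7% higher and 2.79% lower over all genes. It was at 34.4 ± 2.56 FPKM in DKO and 17.8 ± 3.29 FPKM in CTL cells (log2 change 0.93, adjusted p = 9.54e-04). After rescaling 2 of the 8 rose and 5 fell, against 17.1% and 23.8% of all genes.

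Of 12 tested negative regulators 1 rose, 1 fell and 10 were not called, against 18.7% higher and 2.79% lower over all genes. After rescaling 1 of them rose and 3 fell, against 17.1% and 23.8% of all genes. Socs1, an inhibitor of cytokine signalling, was at 49.3 ± 5.74 FPKM in DKO and 4.09 ± 0.285 FPKM in CTL cells (log2 change 3.30, adjusted p = 1.17e-08). Irak3, which encodes the inhibitory kinase relative IRAK-M, fell, at 5.33 ± 0.505 FPKM in DKO and 9.81 ± 0.980 FPKM in CTL cells, a log2 change of -0.77 (adjusted p = 0.00159). In CD93+ cells Hsp90b1 was the 1 gene of the 5 lists called, at 588 ± 174 FPKM in DKO and 184 ± 28.1 FPKM in CTL cells (log2 change 1.63, adjusted p = 0.00805).

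A further list held 18 genes that ligands of Toll-like receptors can induce in B cells, though other stimuli induce them too. Like the other lists, it was chosen with earlier results of these data known. Its share of calls therefore describes the list and is not a test of it. Of 16 tested, 12 rose and none fell in CD93- cells, where 18.7% of all genes rose and 2.79% fell, and the median change was 0.80, against 0.11 over all genes. After rescaling 11 rose and 3 fell, against 17.1% and 23.8% of all genes. The largest change was in Ccl4, a chemokine, at 9.20, 10.1 and 10.6 FPKM in DKO libraries, against 2.17, 2.27 and a listed 0 FPKM in CTL libraries. Bcl2a1b, a survival gene with near-identical copies whose reads may have been split, had a change of 1.08 and Cd86 one of 1.01. In CD93+ cells 5 of 16 rose and none fell, against 1.67% and 1.54% of all genes, and after rescaling 9 rose and 1 fell, against 11.4% and 9.34%. The 5 were Ccl4, Ccl3, Bcl2a1b, the cytokine gene Il10 and Traf1, with changes of 2.45, 2.33, 1.66, 1.06 and 1.001. Il10 was at 1.89, 1.41 and 1.301 FPKM in DKO and 0.544, 0.0831 and 0.0540 FPKM in CTL libraries.

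**Figure D4:**
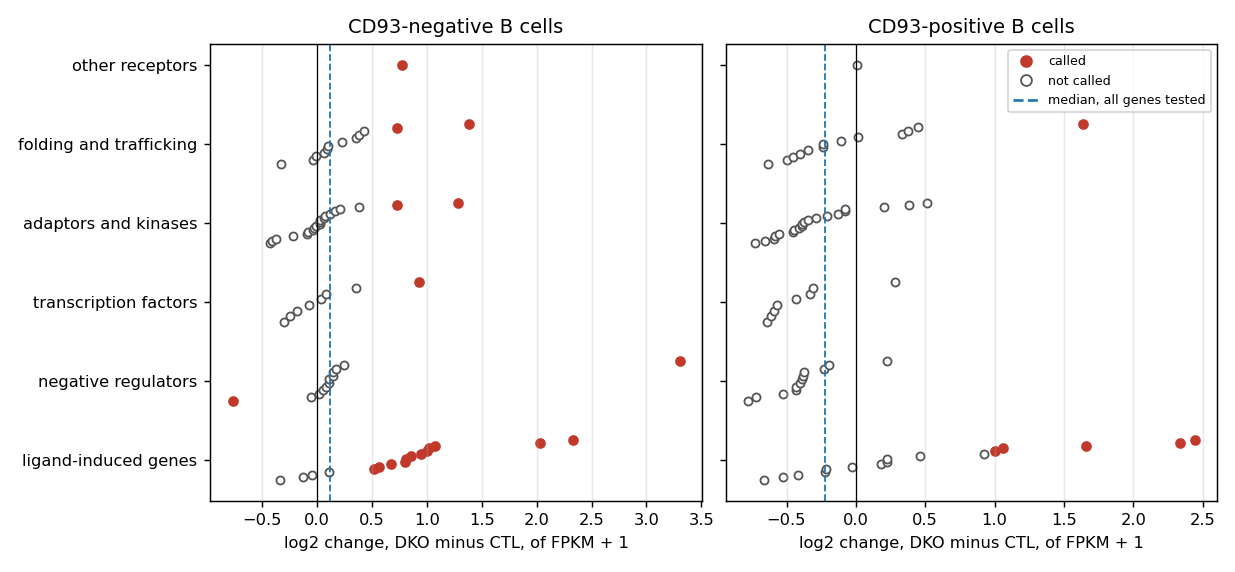
Log2 change, DKO minus CTL, of FPKM + 1 for each tested gene of the pathway lists, filled where the adjusted p of limma was under 0.05, with a dashed line at the median of all genes tested. The genes that ligands can induce hold 12 filled points in CD93- and 5 in CD93+ cells, and the other lists together 8 and 1.

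Genes whose pattern over the libraries was most like that of a member were taken by Pearson's r on log2(FPKM + 1) within each table, averaged over the 2 tables, among 6630 other genes. For Tlr7 these were Igtp, an interferon-inducible GTPase, Casp4, an inflammatory caspase, Gimap4, a GTPase of lymphocytes, and H2-Q4, a non-classical MHC class I gene with close relatives, with mean r of 0.980 to 0.986. Igtp averaged 52.3 FPKM in DKO and 9.79 FPKM in CTL libraries of CD93- cells, and 40.7 against 11.3 FPKM in CD93+ cells. For Ly86 they included Cxcr5, the chemokine receptor of B cell follicles, B3gnt8 and Cnn3 (mean r 0.966 to 0.979). Cxcr5 averaged 70.9 FPKM in DKO and 105 FPKM in CTL libraries of CD93- cells, and 19.8 against 28.03 FPKM in CD93+ cells. For Cd180 they were Jak1, Pik3r4, Ppm1b and Zfp961 (mean r 0.980 to 0.985). Each r rests on 6 libraries that share their groups and their scaling, and is a description only.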

How the data were processed

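RNA-seq libraries had been made from total RNA with a strand-specific kit, per the labels' protocols. Per the submitters' processing notes, mm9 was the genome build named, and the tools were Cufflinks 2.1.1, TopHat2 2.0.8 and Bowtie2 2.1.0. FPKM is the unit the authors deposited, with 1 column per library, and the annotation and filters are not given in the sources used here. For CD93+ cells, 6 columns repeat the 6 used and were left out, and 25 symbols in the form of dates could not be read. FPKM holds no counts, so depth is unknown and no count model was used.

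Groups came from the sample titles. Within each table, genes that reached 1 FPKM in 3 or more libraries entered a two-sided limma fit (version 3.58.1, R 4.3.3, with trend and no covariate) on log2(FPKM + 1). Ratios used FPKM + 0.1 for the exact permutation test. The fit was first tested on simulated data with 200 changed genes per table. These were drawn from genes with a mean log2(FPKM + 1) above 2, with noise drawn independently for each gene and library. Shifts of a whole library were not simulated, so the rates and false calls need not carry over to the real libraries. For CD93- cells it recovered 85% of changes of 1 and 97% of changes of 2 log2 units, with 4 false calls. For CD93+ cells it recovered 12% and 76%, with 2 false calls.

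The members and lists were chosen with earlier results of these data known. Beyond the members, up to 4 called genes of largest change per list and the 4 genes most like Tlr7, Cd180 and Ly86, among genes that averaged 5 FPKM or more in each table, were named. Genes named outside that rule (Ikbkb, Irak2, Acaa1a, and Traf1 as the last of 5 calls) were added after their values were seen. Some genes that the rule names are not reported here. Overlaps and shared stretches come from GENCODE M21, of another build than mm9.

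Alternatives were other pseudocounts, filters and scalings, no trend, sample weights, a replicate block, sex as a covariate and each library left out.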

Additional observations from a re-analysis of the deposited data

How the results depend on the processing

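In CD93- cells 2045 genes were called higher and 306 lower. Leaving out 1 library in turn gave 1249 to 2546 higher and 181 to 1121 lower, with 2 to 4 members higher and 1 to 4 lower. Sample weights gave 1361 genes higher. Calls of lower genes were 184 without a filter, 2609 after upper quartile rescaling, 2587 after it without a trend, and 2314 after quantile normalization, where 1, 4, 4 and 4 members were lower. The log2 change of Tlr4 turned to -0.10 after upper quartile rescaling with or without a trend and to -0.0599 after quantile normalization, and that of Tlr2 ran from -0.12 to 0.0374 with 1 library left out. The cause was not tested.

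In CD93+ cells 188 genes were called higher and 173 lower, or 103 to 539 and 60 to 224 with 1 library left out, with 0 or 1 member higher and 0 lower. With 1 library left out and upper quartile rescaling, 1 member was higher and 0 or 1 lower. Genes called higher numbered 11 without a filter, 73 with a filter of 5 FPKM, 1280 after upper quartile rescaling, 1112 after it without a trend, 1103 after quantile normalization, 106 without a trend, 551 with sample weights, 80 with sex as a covariate and 398 with sex and upper quartile rescaling. Genes called lower numbered 5, 95, 1051, 940, 1127 and 82 under the first 6 of these and 47 with sex as a covariate. No member (0) was higher without a filter, without a trend, or with sex as a covariate under either scaling. None was called higher with a filter of 5 FPKM either, but Tlr7 was not tested there, since fewer than 3 libraries reached 5 FPKM. Changes turned positive with sample weights for Tlr2 (0.0676), Tlr6 (0.0734), Unc93b1 (0.0347), Myd88 (0.0544) and Tet2 (0.0792). With 1 library left out they ran from -0.27 to 0.0131 for Tlr6, -0.28 to 0.0804 for Tlr4, -0.44 to 0.0803 for Unc93b1 and -0.26 to 0.20 for Myd88, in each case positive without DKO replicate 3. Myd88 was also positive after upper quartile rescaling (0.15, with or without a trend), with sex as well (0.18) and after quantile normalization (0.16).

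With the replicate block, 2435 genes were higher and 439 lower in CD93- cells, with 4 and 2 members, and 138 and 99 in CD93+ cells, with 0 members, since Tlr7 then had an adjusted p of 0.128. Deviations from the group mean of libraries with the same number correlated at -0.11 to 0.02 in CD93- and -0.14 to 0.17 in CD93+ cells. Those of libraries with different numbers correlated at -0.04 to 0.12 and -0.31 to 0.34. The sources do not say that the numbers pair libraries, and correlations that vary this much cannot decide it.

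Of the log2 ratios, Tlr9/Unc93b1 in CD93- cells ranged from -0.0622 to 0.00836, Tlr1/Tlr6 there from -0.18 to 0.00703 and Ly86/Cd180 in CD93+ cells from -0.25 to 0.0872 with 1 library left out, and the other ratios kept their direction. Depth is unknown, and 3 libraries per group limit the precision.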
